A study of Homo sapiens with 14 samples.

Results

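Epithelial sodium uptake under corticosteroid control was followed through 6 genes: SGK1, SCNN1A, NEDD4L, ATP1B1, TFCP2L1 and EDN1. They were taken from the deposited count table by symbol, a rule that holds no measured value, although the genes were picked with earlier results of these data known. All 6 were found among the 58780 genes of the table, each as a single row, and all 6 were among the 21910 genes that passed the filter on low counts. The measurement was precision run-on sequencing (PRO-seq), which reads RNA that engaged polymerases extended in permeabilized cells, so a count stands for nascent transcription rather than for stored messenger RNA.

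A549 cells, established from a human lung adenocarcinoma and alveolar epithelial in origin, were kept in 0.01% DMSO throughout. Untreated cells carried the 15 min label and served as the control. GSK591, an inhibitor of the symmetric arginine methyltransferase PRMT5, was used at 1 µM for 15 min or for 3 h. MS023, an inhibitor of the type I arginine methyltransferases, was used at 1 µM for the same times. In 2 further groups 100 nM dexamethasone (Dex), a synthetic glucocorticoid, was combined with GSK591 or with MS023 for 15 min. Each of the 7 groups had 2 libraries, 14 in all. Neither Dex alone nor a 3 h control was analysed here: every Dex comparison therefore has an inhibitor on both sides, and the 3 h groups are compared with a control of another time. The labels do not say whether the libraries of a group came from separately grown cultures, so the p-values measure only the spread between these samples, which may be technical. A549 is a single tumour line in bulk culture, where fewer cells of a type and less RNA per cell cannot be told apart.

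Sodium-absorbing epithelia take up sodium through the apical epithelial sodium channel (ENaC) and pump it out at the basolateral side with the sodium pump, and in the lung this transport clears fluid from the airspaces. Corticosteroid receptors bind DNA at response elements and raise SGK1, whose kinase phosphorylates the ubiquitin ligase NEDD4L. Unphosphorylated NEDD4L binds ENaC and sends it for internalisation, so the kinase leaves more channel at the surface. SCNN1A encodes the alpha subunit that ENaC needs to form a working channel, and ATP1B1 the beta subunit that carries the pump to the membrane. TFCP2L1 encodes a grainyhead-related transcription factor of the renal collecting duct, and EDN1 the precursor of endothelin-1, a peptide that lowers sodium uptake there.

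Library totals ran from 5768312 counts, in MS023 for 15 min replicate 2, to 9606938, and mitochondrial genes took 39.8% to 58% of them. The epithelial keratin gene KRT8 lay between 259 and 353 CPM (counts scaled to a common library size after TMM adjustment) and KRT18 between 119 and 178, in every library. EPCAM, at 1.3 to 4.09 CPM, and CDH1, at 1.38 to 3.46 CPM, were low. Of 6 markers of differentiated airway and alveolar cells, 3 passed the filter on low counts: SFTPB at 12.3 to 17.3 CPM, SFTPC at 1.6 to 4.29 CPM and FOXJ1 at 2.14 to 6.11 CPM. SFTPA1, NKX2-1 and SCGB1A1 did not exceed 0.459 CPM in any library. Of 7 blood, endothelial and fibroblast markers, 3 passed the filter on low counts, and PTPRC, PECAM1, VWF and COL1A2 reached at most 0.554 CPM. The summed level of these 7 was 14.7 to 19.6 CPM without Dex and 19.2 to 21.4 CPM with it, and their part in the Dex results was not tested.

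All positions are from GENCODE release 29 on GRCh38. SGK1 (ENSG00000118515.11) lies on chromosome 6 from 134169246 to 134318112 on the minus strand, with 9992 annotated exon bases that no other gene's exons overlap. SCNN1A (ENSG00000111319.12) lies on chromosome 12 from 6346843 to 6377730 on the minus strand, and 7.18% of its 5876 exon bases are shared with LTBR on the opposite strand. NEDD4L (ENSG00000049759.17) lies on chromosome 18 from 58044367 to 58401540 on the plus strand, with 17455 exon bases, of which 5.41% overlap AC090236.1 and AC107896.1. ATP1B1 (ENSG00000143153.12) lies on chromosome 1 from 169105697 to 169132722 on the plus strand, and 6.48% of its 2962 exon bases overlap NME7 on the opposite strand. TFCP2L1 (ENSG00000115112.7) lies on chromosome 2 from 121216587 to 121285207 on the minus strand with 9372 exon bases. EDN1 (ENSG00000078401.6) lies on chromosome 6 from 12290363 to 12297194 on the plus strand with 2033 exon bases, and neither it nor TFCP2L1 is overlapped. The strand setting of the counting is not given in the sources used here, so reads in the overlaps cannot be assigned between partners.

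Promoter sequence is shown for the genes that the results turn on: SGK1, the member called with Dex beside both inhibitors, and ATP1B1 and NEDD4L, the members called at 3 h. RefSeq starts on GRCh38.p14 matched 5 of the 6 genes. SCNN1A had no start there, so its promoter was not searched. Each window holds the 250 bases before a start, 5′ to 3′ on the gene's strand, with matched motifs in capitals. The windows of SGK1, on the minus strand, are chr6:134318113-134318362 for start 1, chr6:134177862-134178111 for start 2 and chr6:134174867-134175116 for start 3, and the last 2 lie within the span of the longest transcripts. The ATP1B1 window is chr1:169106440-169106689 and the window of NEDD4L start 1 is chr18:58046976-58047225, both on the plus strand. NEDD4L has 5 starts, of which only start 1, the most upstream, is printed.
SGK1 start 1: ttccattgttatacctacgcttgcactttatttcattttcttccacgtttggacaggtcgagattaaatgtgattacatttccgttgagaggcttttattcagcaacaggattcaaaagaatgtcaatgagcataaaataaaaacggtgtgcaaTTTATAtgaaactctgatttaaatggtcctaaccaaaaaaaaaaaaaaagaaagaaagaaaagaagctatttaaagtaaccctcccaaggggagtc
SGK1 start 2: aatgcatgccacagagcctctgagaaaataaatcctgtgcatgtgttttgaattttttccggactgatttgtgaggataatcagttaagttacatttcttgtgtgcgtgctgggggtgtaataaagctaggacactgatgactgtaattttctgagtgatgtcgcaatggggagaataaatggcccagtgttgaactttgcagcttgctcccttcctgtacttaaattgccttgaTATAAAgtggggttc
SGK1 start 3: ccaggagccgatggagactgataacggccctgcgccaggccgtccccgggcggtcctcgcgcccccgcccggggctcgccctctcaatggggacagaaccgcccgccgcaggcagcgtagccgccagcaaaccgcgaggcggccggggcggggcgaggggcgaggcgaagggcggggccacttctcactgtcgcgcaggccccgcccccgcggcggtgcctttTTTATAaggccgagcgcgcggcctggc
ATP1B1: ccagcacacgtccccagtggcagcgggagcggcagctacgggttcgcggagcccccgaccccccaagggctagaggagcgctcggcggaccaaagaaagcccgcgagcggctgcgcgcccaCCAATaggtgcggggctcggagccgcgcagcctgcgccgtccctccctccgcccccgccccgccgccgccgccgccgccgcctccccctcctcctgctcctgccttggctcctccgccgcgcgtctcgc
NEDD4L start 1: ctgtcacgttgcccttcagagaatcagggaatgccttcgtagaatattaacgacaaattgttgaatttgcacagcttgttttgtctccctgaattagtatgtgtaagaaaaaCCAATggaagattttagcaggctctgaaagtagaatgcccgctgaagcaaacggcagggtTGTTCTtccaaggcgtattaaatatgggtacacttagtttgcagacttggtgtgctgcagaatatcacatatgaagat

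Motifs were searched on both strands and do not overlap each other. TATAAA, the TATA box, was in 10.7% of the 35116 windows of all genes. In SGK1 it stands 15 to 10 bases before start 2, and as its reverse complement TTTATA 27 to 22 bases before start 3 and 96 to 91 bases before start 1. The SGK1 windows differ in base composition, with 33.6%, 41.6% and 76% G and C. The ATP1B1 window, at 77.6% G and C, holds a CCAAT box 129 to 125 bases before the start, a motif present in 32% of all windows. TGTTCT, the hexamer on each side of a glucocorticoid response element, was in 12.4% of windows on either strand. Among all windows of the 5 members with a start it was matched once, 78 to 73 bases before NEDD4L start 1. Of the other NEDD4L windows, those of starts 3 and 5 held only CCAAT boxes and those of starts 2 and 4 no motif. The full palindromic glucocorticoid response element was in 0.00285% of all windows and in none of the windows of these 5 members. A match describes letters only, and its absence from 250 bases says nothing about binding elsewhere.

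Nascent levels were compared between genes only per kilobase of annotated exon. In untreated cells the order was EDN1 with 23.5 ± 1.01 CPM per kb (SD, n = 2), ATP1B1 with 17.5 ± 1.85, SCNN1A with 9.36 ± 0.836, SGK1 with 3.89 ± 0.195, NEDD4L with 0.883 ± 0.0815 and TFCP2L1 with 0.423 ± 0.079. No neighbours in this order overlapped between their libraries. The feature counted is not given in the sources used here, and this order holds only if reads were counted over exons. The exon lengths merge all isoforms, which can lower the value per kb of a gene with many alternative exons. Whether this set the place of NEDD4L was not tested. Raw counts per library were 234 to 503 for SGK1, 409 to 655 for SCNN1A, 338 to 915 for ATP1B1, 252 to 449 for EDN1, 105 to 222 for NEDD4L and 19 to 43 for TFCP2L1, which was therefore the least precisely measured.

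**Figure D1:**
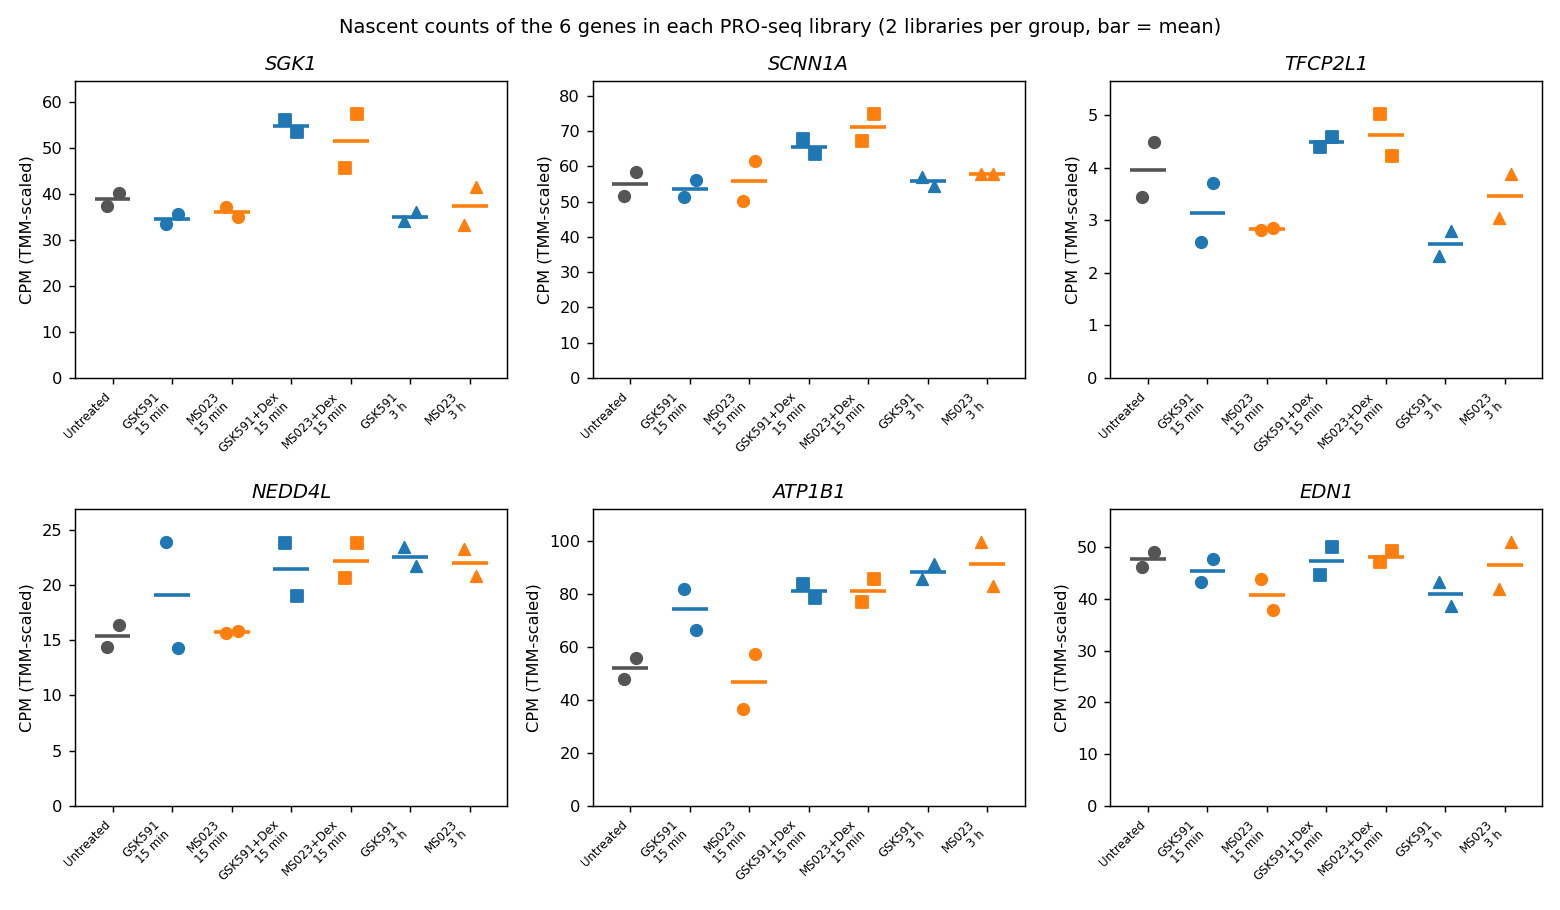
CPM (TMM-scaled, linear axis from 0) of each of the 6 genes in each of the 14 libraries, with a bar at the mean of the 2 libraries of a group. Colours mark the inhibitor and shapes the group's Dex and time. The 4 Dex libraries are the highest of the SGK1 panel, at 45.6 to 57.4 CPM, while the ATP1B1 panel is high in both 3 h groups, at 83.1 to 99.8 CPM.

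SGK1 was the member whose transcription rose with Dex beside either inhibitor. In untreated cells it was at 37.5 and 40.3 CPM in replicates 1 and 2. GSK591 for 15 min gave 33.6 and 35.6 CPM, and adding Dex gave 56.2 and 53.6 CPM. MS023 for 15 min gave 37.2 and 35.1 CPM, and adding Dex gave 45.6 and 57.4 CPM. All 4 Dex libraries were above every library without Dex, and replicate 1 of MS023 with Dex was the nearest to them. The level rose by a log2 fold change of 0.67 ± 0.12 (SE) when Dex joined GSK591, with an adjusted p of 0.000354 in edgeR's quasi-likelihood test, and by 0.51 ± 0.12 when it joined MS023, with an adjusted p of 0.00261. These are 1.59-fold and 1.42-fold higher. The rise beside MS023 rested on replicate 2 of the Dex group: without it the log2 fold change was 0.34 with an adjusted p of 0.194.

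Dex effects on SGK1 beside the 2 inhibitors were not told apart. The difference, GSK591 minus MS023, was 0.16 ± 0.17 on the log2 scale (95% interval -0.18 to 0.49, adjusted p 0.818 in edgeR's quasi-likelihood test). At 3 h, without Dex, SGK1 was at 34.2 and 36.0 CPM with GSK591 and at 33.3 and 41.6 CPM with MS023. These overlap the 15 min inhibitor libraries, and MS023 at 3 h also overlaps the untreated ones. The log2 fold changes against untreated cells were -0.15 ± 0.12 (95% interval -0.39 to 0.09) and -0.07 ± 0.12 (95% interval -0.30 to 0.17), and neither passed the test.

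SCNN1A, the channel subunit, was at 51.5 and 58.5 CPM in untreated cells, 51.2 and 56.2 CPM with GSK591 for 15 min and 50.2 and 61.4 CPM with MS023 for 15 min. Adding Dex gave 67.6 and 63.5 CPM beside GSK591, and 67.2 and 74.8 CPM beside MS023. As for SGK1, the Dex libraries were the 4 highest of the 14. The gene rose with Dex beside MS023, by 0.36 ± 0.11 on the log2 scale (adjusted p 0.024, edgeR's quasi-likelihood test), while beside GSK591 the difference of 0.29 ± 0.11 did not pass (adjusted p 0.135). The Dex effects themselves differed by -0.07 ± 0.15 (95% interval -0.37 to 0.24, adjusted p 0.936, edgeR). Passing beside MS023 alone therefore does not show a difference between the inhibitors. Without MS023 15 min replicate 1 the rise was 0.21 with an adjusted p of 0.51 (edgeR). Without replicate 2 of MS023 with Dex it was 0.28 with an adjusted p of 0.277 (edgeR). With DESeq2 it was 0.36 with an adjusted p of 0.0865. Library size alone gave 0.17 (adjusted p 0.512, edgeR) and no expression filter gave 0.33 (adjusted p 0.0689, edgeR). The call held in 6 of 11 alternatives. At 3 h the gene was at 57.0 and 54.5 CPM with GSK591 and 57.7 and 57.8 CPM with MS023, inside the untreated range.

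ATP1B1, the pump's beta subunit, showed another pattern, high not only with Dex but also at 3 h without it. Untreated libraries held 48.1 and 55.8 CPM. GSK591 for 15 min held 82.0 and 66.6 CPM, and MS023 for 15 min held 36.5 and 57.3 CPM. The GSK591 libraries lay above both untreated ones, whereas the MS023 libraries spread across them. With Dex the levels were 83.7 and 78.7 CPM beside GSK591 and 77.1 and 85.6 CPM beside MS023. At 3 h they were 85.6 and 91.3 CPM with GSK591 and 99.8 and 83.1 CPM with MS023. Every Dex and 3 h library, at 77.1 to 99.8 CPM, lay above the untreated ones.

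Dex raised ATP1B1 beside MS023 by 0.82 ± 0.13 on the log2 scale (adjusted p 2.6e-05, edgeR's quasi-likelihood test), which is 1.76-fold. The size of this rise rested on the MS023 15 min libraries: it was 0.51 (adjusted p 0.0432, edgeR) without replicate 1 and 1.16 (adjusted p 5.67e-07, edgeR) without replicate 2. Beside GSK591 the difference was 0.13 ± 0.13 (95% interval -0.13 to 0.39, adjusted p 0.676). The difference between these Dex effects was -0.69 ± 0.18, with an adjusted p of 0.0501 in edgeR, and did not pass. It ranged from -0.38 (adjusted p 0.616, edgeR) without MS023 15 min replicate 1 to -1.02 (adjusted p 0.00111, edgeR) without replicate 2, and DESeq2 gave -0.67 with an adjusted p of 0.489. The groups given Dex had means of 81.2 ± 3.60 and 81.4 ± 6.03 CPM (SD, n = 2), and it was the inhibitor groups without Dex that stood apart, at 74.3 ± 10.8 and 46.9 ± 14.7 CPM. A direct comparison of GSK591 with MS023 at 15 min gave 0.68 ± 0.13 in favour of GSK591 (adjusted p 0.0038, edgeR). That call rested on single libraries: it was 0.38 with an adjusted p of 0.633 (edgeR) without MS023 15 min replicate 1, and 0.52 with an adjusted p of 0.262 (edgeR) without GSK591 15 min replicate 1. DESeq2 gave 0.66 with an adjusted p of 0.156.

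At 3 h ATP1B1 was higher than in untreated cells with either inhibitor. The log2 fold change was 0.77 ± 0.13 for GSK591 (adjusted p 3.3e-05) and 0.82 ± 0.13 for MS023 (adjusted p 1.3e-05) in edgeR's quasi-likelihood test, or 1.70-fold and 1.77-fold. Both were called in each of 11 alternative analyses, with ranges of 0.67 to 0.90 and 0.68 to 0.95. The authors' deposited tables called 535 genes at 3 h of GSK591 and 359 at 3 h of MS023. At 15 min of GSK591 and MS023 without Dex they called 0 and 3. ATP1B1 is the one member called in the deposited tables. Its log2 fold changes there are 0.67 ± 0.21 (adjusted p 0.0326, DESeq2) at 3 h of GSK591 and 0.72 ± 0.21 (adjusted p 0.0281, DESeq2) at 3 h of MS023. Between 15 min and 3 h the gene rose with MS023, by 0.99 ± 0.13 (adjusted p 5.7e-07, edgeR). With GSK591 it differed by 0.25 ± 0.12 over that time (adjusted p 0.259, edgeR). After 15 min of GSK591 the difference from untreated cells was 0.52 ± 0.13 with an adjusted p of 0.0687 (edgeR). It was 0.66 with an adjusted p of 0.0295 (edgeR) without GSK591 15 min replicate 2 and 0.36 with an adjusted p of 0.999 (edgeR) without replicate 1. Without untreated replicate 1 it was 0.41 with an adjusted p of 1 (edgeR), and DESeq2 gave an adjusted p of 0.596.

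NEDD4L, the ligase that removes ENaC, was at 14.4 and 16.4 CPM in untreated cells and at 15.6 and 15.8 CPM with MS023 for 15 min. The replicates of GSK591 for 15 min were split, at 23.9 and 14.3 CPM. With Dex the levels were 23.8 and 19.0 CPM beside GSK591, and 20.6 and 23.8 CPM beside MS023. At 3 h they were 23.4 and 21.7 CPM with GSK591 and a mean of 22.0 ± 1.73 CPM (SD, n = 2), the lower at 20.8, with MS023. Apart from the split pair, the Dex and 3 h libraries all exceeded the untreated and MS023 15 min libraries. The gene rose by 0.55 ± 0.16 on the log2 scale at 3 h of GSK591 (adjusted p 0.0183, edgeR's quasi-likelihood test), by 0.52 ± 0.16 at 3 h of MS023 (adjusted p 0.04) and by 0.50 ± 0.17 when Dex joined MS023 (adjusted p 0.0482). These calls are fragile. Leaving out any library of the compared groups ended both 3 h calls and the Dex call, with adjusted p from 0.0552 to 0.35 (edgeR), and DESeq2 called none of them, with adjusted p from 0.0925 to 0.185. Beside GSK591 the Dex difference was 0.16 ± 0.16 (adjusted p 0.68, edgeR), and the Dex effects differed by -0.34 ± 0.23 (95% interval -0.81 to 0.14).

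TFCP2L1, the transcription factor, was the least transcribed member. It was at 3.44 and 4.49 CPM in untreated cells, 2.59 and 3.70 CPM with GSK591 and 2.81 and 2.85 CPM with MS023 for 15 min. Dex beside GSK591 gave 4.39 and 4.59 CPM and beside MS023 gave 5.02 and 4.22 CPM, so the Dex libraries lay above their own inhibitor controls but overlapped the untreated ones. The Dex differences of 0.51 ± 0.30 and 0.71 ± 0.29 on the log2 scale did not pass (adjusted p 0.408 and 0.142, edgeR's quasi-likelihood test), and their 95% intervals, -0.09 to 1.11 and 0.11 to 1.30, also hold changes larger than those of SGK1. At 3 h TFCP2L1 was at 2.32 and 2.79 CPM with GSK591, below both untreated libraries (-0.63 ± 0.30, adjusted p 0.177, edgeR), and at 3.05 and 3.88 CPM with MS023.

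EDN1, the endothelin-1 precursor, varied little. Its 14 libraries ran from 37.8 CPM, in MS023 for 15 min replicate 2, to 51.1 CPM, in MS023 for 3 h replicate 2. Untreated libraries held 46.2 and 49.2 CPM, and the Dex libraries held 44.7 and 50.0 CPM beside GSK591 and 47.1 and 49.3 CPM beside MS023. Its Dex differences were 0.06 ± 0.11 (95% interval -0.17 to 0.29) and 0.23 ± 0.11 (95% interval 0.00 to 0.46) on the log2 scale. Like TFCP2L1, EDN1 was called in none of the 13 comparisons by edgeR.

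Counted over the members, Dex beside GSK591 called 1 of 6 genes, SGK1, where 3.7% of all tested genes were called. Dex beside MS023 called 4 of 6, SGK1, SCNN1A, NEDD4L and ATP1B1, all higher, against a background of 8.97%. The members' median log2 fold change was 0.23 beside GSK591 and 0.50 beside MS023, where the medians of all tested genes were -0.00 and -0.02. No member was called in the difference between the Dex effects (background 1.15%). At an unadjusted p under 0.05, 2360 genes differed there, and ATP1B1 was among the called genes in 4 of 15 alternatives. The larger number of calls beside MS023 is therefore not itself a tested difference between the inhibitors.

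**Figure D2:**
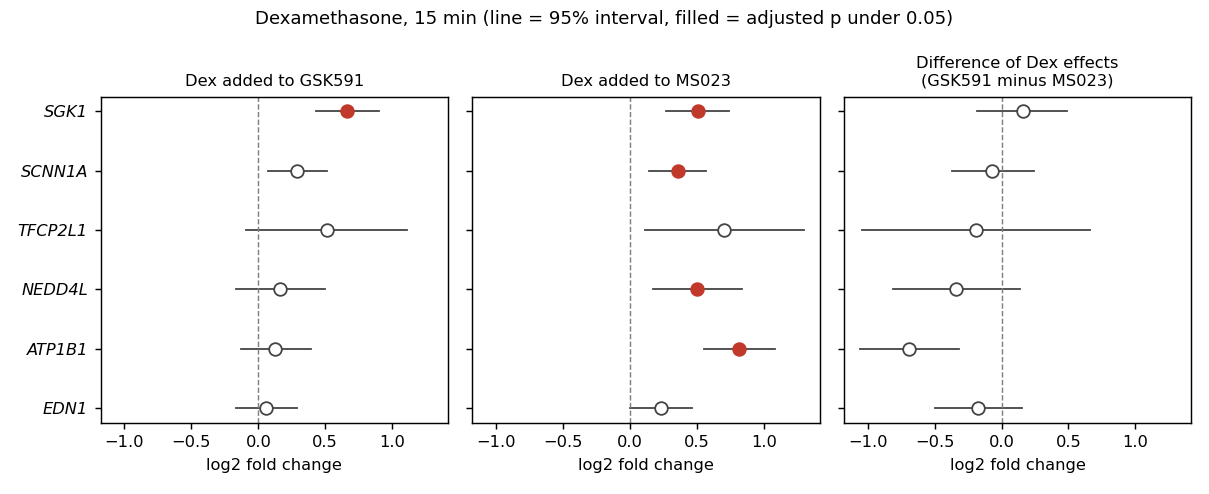
Log2 fold change of the 6 genes when Dex was added to GSK591 (left) or to MS023 (middle) for 15 min, and the difference between these effects (right), each with its 95% interval from edgeR. Filled points passed an adjusted p of 0.05. SGK1 is filled in both Dex panels, at 0.67 and 0.51, and no point is filled on the right, where ATP1B1 lies farthest from 0, at -0.69.

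Either inhibitor alone for 15 min called 0 of 6 members, where 0.306% of all genes were called with GSK591 and 0.183% with MS023. The other tests run on the same data gave at most 1 call, ATP1B1 with GSK591, and DESeq2 gave 0 for both inhibitors. At an unadjusted p under 0.05 there were 1501 and 1770 genes. At 3 h each inhibitor called 2 of 6, NEDD4L and ATP1B1, both higher, where 11% and 7.63% of all genes were called. The median of the 6 members at 3 h was -0.06 with GSK591 and 0.01 with MS023, close to the median of all genes of -0.01 in both, so that 2 members moved while the remainder did not pass. These comparisons share the untreated libraries, and leaving out untreated replicate 1 or replicate 2 left ATP1B1 as the sole call at 3 h for either inhibitor.

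Within MS023, NEDD4L (0.50 ± 0.17, adjusted p 0.0434, edgeR) and ATP1B1 were also called between 15 min and 3 h, against a background of 12%. This NEDD4L call was fragile too. DESeq2 gave 0.51 with an adjusted p of 0.156, and library size alone gave 0.35 (adjusted p 0.239, edgeR). Leaving out single libraries gave 0.41 to 0.59. For GSK591 none of the 6 was called over that time, against 6.41%. At an unadjusted p under 0.05 there were 4271 genes, and DESeq2 also called no member. Set against each other, the inhibitors differed at 15 min in 1 of 6 members, ATP1B1, with a background of 1.09%. At 3 h they differed in 0 of 6, where edgeR called 0% of all genes, 1319 genes had an unadjusted p under 0.05 and DESeq2 called 1 gene. The 95% intervals of the 3 h difference, GSK591 minus MS023, were -0.32 to 0.16 for SGK1, -0.30 to 0.20 for ATP1B1 and -0.28 to 0.35 for NEDD4L.

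**Figure D3:**
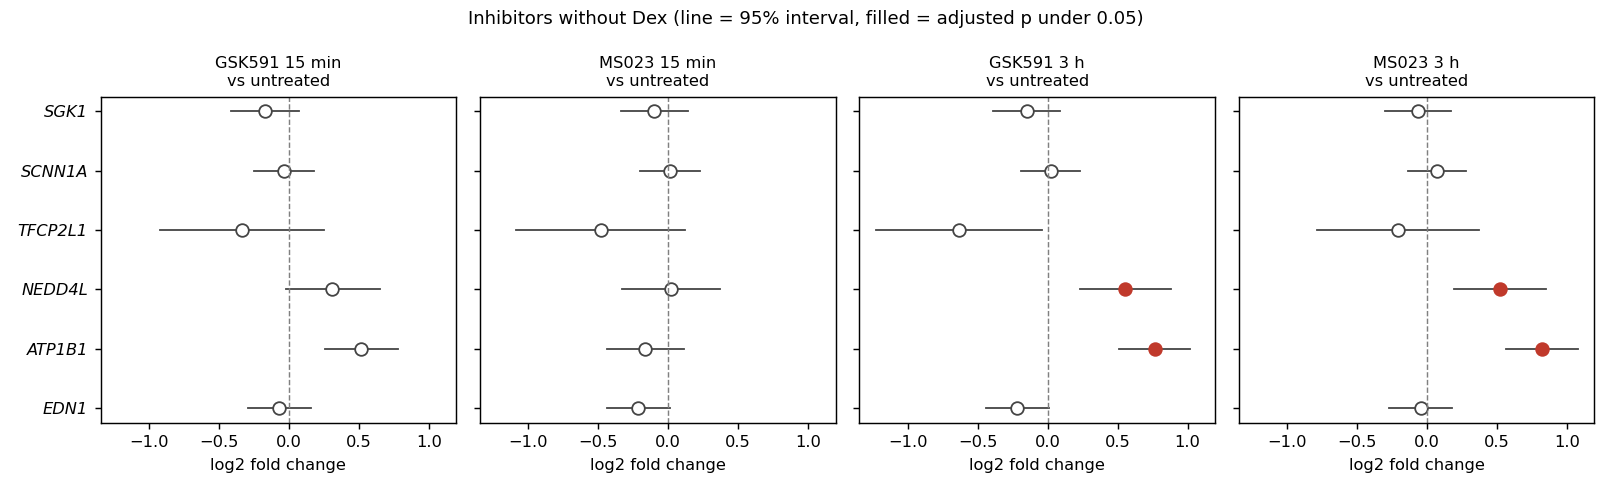
Log2 fold change of the 6 genes against untreated cells for GSK591 and MS023 without Dex, at 15 min (left panels) and 3 h (right panels), with 95% intervals from edgeR. Filled points passed an adjusted p of 0.05. Only NEDD4L and ATP1B1 are filled, in both 3 h panels, at 0.55 and 0.77 with GSK591 and at 0.52 and 0.82 with MS023.

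Against untreated cells, the combinations with Dex called 2 of 6 members for GSK591 (background 5.85%) and 4 of 6 for MS023 (background 7.66%). SGK1 was higher by 0.50 ± 0.12 and 0.41 ± 0.11 (adjusted p 0.005 and 0.0179, edgeR), and ATP1B1 by 0.65 ± 0.13 in both (adjusted p 0.00121 and 0.000583, edgeR). With MS023, SCNN1A was higher by 0.37 ± 0.10 and NEDD4L by 0.52 ± 0.16 (adjusted p 0.0187 and 0.0352, edgeR). These comparisons mix inhibitor and Dex, and they share the untreated libraries. Without untreated replicate 1 neither combination called any member. In the authors' deposited tables for the same comparisons SGK1 has log2 fold changes of 0.44 (adjusted p 0.415) and 0.35 (adjusted p 0.613), and no member is called, among 154 and 238 called genes.

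The wider pathway was read from 10 lists that together hold 76 genes besides the 6 members, of which 62 were tested. When Dex joined GSK591, 3 of the 62 rose and 1 fell (6.45%, where 3.7% of all tested genes were called), with a median log2 fold change of 0.05. When it joined MS023, 11 rose and 1 fell (19.4%, where 8.97% of all tested genes were called), with a median of 0.11. The medians of all tested genes were -0.00 and -0.02. The genes that rose beside both inhibitors were the long-established glucocorticoid targets PER1, TSC22D3 and FKBP5. PER1, a circadian repressor that also acts on SCNN1A transcription, went from 26.8 ± 0.938 to 99.3 ± 11.4 CPM beside GSK591 (SD, n = 2), a log2 fold change of 1.89 ± 0.13 (adjusted p 7.7e-14, edgeR), and from 32.4 ± 9.58 to 120 ± 11.8 CPM beside MS023. TSC22D3, the leucine zipper protein GILZ, rose by 1.72 and 1.89, and FKBP5, a co-chaperone of the receptor, by 1.23 and 1.10. The SGK1 rise of 0.67 and 0.51 lay below that of each of these 3 genes in both comparisons, without a test between genes. Exons of PER1 overlap AC129492.3 and MIR6883, and those of TSC22D3 overlap NCBP2L, so reads in these overlaps are uncertain.

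SLC9A3R1, which encodes the scaffold NHERF1 of the sodium-proton exchanger NHE3, was the gene that fell. It fell by 0.50 on the log2 scale beside GSK591, from 54.9 to 38.8 CPM (adjusted p 0.0127, edgeR), and by 0.46 beside MS023, from 56.9 to 41.4 CPM (adjusted p 0.00813, edgeR). The libraries of GSK591 with Dex were apart, at 32.1 and 45.4 CPM. Untreated cells were at 47.2 to 54.9 CPM. Against them SLC9A3R1 was called lower for GSK591 with Dex but was not called for MS023 with Dex (edgeR). Its exons overlap AC016888.1 and MIR3615.

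Beside MS023 the other genes that rose with Dex were SLC12A2, SIRT1, SGK3, STK39, UBP1, NEDD4, SERPINE2 and YWHAQ. SLC12A2 encodes the basolateral sodium-potassium-chloride cotransporter NKCC1. It stood at 18.8 to 18.9 CPM in untreated cells, 14.1 to 18.8 CPM with MS023 for 15 min and 29.1 to 40.7 CPM once Dex was added, a log2 fold change of 1.11 ± 0.15 (adjusted p 1.1e-06, edgeR). With GSK591 it went from 22.5 to 28.5 CPM without Dex to 29.4 to 31.0 CPM with it (0.24 ± 0.15, adjusted p 0.431, edgeR). For this gene the difference between the Dex effects passed the test, at -0.87 ± 0.21 (adjusted p 0.0278, edgeR). That call rested on single libraries. It was -0.61 (adjusted p 0.331, edgeR) without replicate 2 of MS023 with Dex, -0.66 (adjusted p 0.439, edgeR) without MS023 15 min replicate 1, -0.69 (adjusted p 0.316, edgeR) without GSK591 15 min replicate 1 and -0.84 (adjusted p 0.0851, edgeR) without replicate 2 of GSK591 with Dex. DESeq2 gave -0.86 with an adjusted p of 0.126. As for ATP1B1, the groups with Dex overlapped and the 15 min inhibitor groups without Dex did not. The latter only restates the direct comparison of these groups. Without Dex, GSK591 exceeded MS023 by 0.66 ± 0.16 at 15 min (adjusted p 0.0219, edgeR). This became 0.45 (adjusted p 0.708, edgeR) without MS023 replicate 1 and 0.47 (adjusted p 0.537, edgeR) without GSK591 replicate 1, and DESeq2 gave an adjusted p of 0.12.

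Among the remaining genes raised beside MS023, SIRT1, a deacetylase, rose by 0.77, SGK3, another kinase of the SGK family, by 0.68, and STK39, the kinase SPAK that activates cotransporters, by 0.62. UBP1, a transcription factor of the TFCP2 family, rose by 0.51, NEDD4, the ligase related to NEDD4L, by 0.50, SERPINE2, a protease inhibitor, by 0.44, and YWHAQ, a phosphoserine-binding adaptor, by 0.41. The same genes beside GSK591 differed by -0.06 to 0.36 and none passed. In the difference between the Dex effects SLC12A2 was the only one of the 62 called (1.61%). These 7 genes are therefore not shown to respond differently beside the inhibitors. For NEDD4, SERPINE2 and STK39, MS023 with Dex was not called against untreated cells (edgeR). NEDD4 was at 16.2 to 16.5 CPM with MS023 for 15 min. Its 20.4 to 25.9 CPM with Dex overlapped the untreated 20.3 to 21.8 CPM. SGK3 overlaps the exons of C8orf44 on the same strand, so its reads are uncertain.

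**Figure D4:**
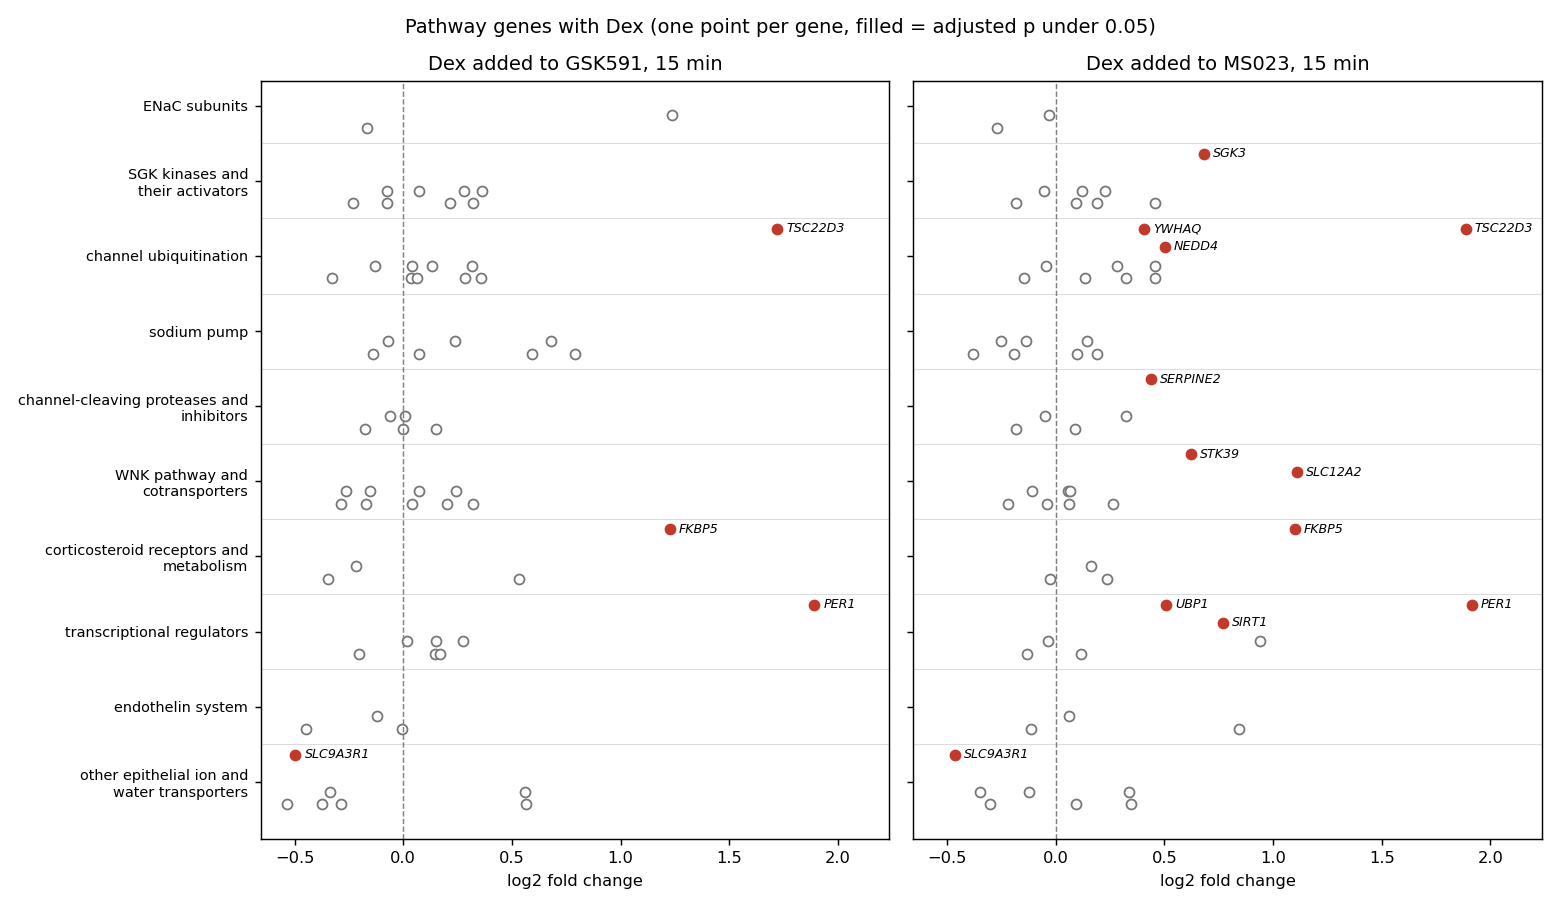
Log2 fold change of the 62 tested pathway genes when Dex was added to GSK591 (left) or MS023 (right), grouped by list, 1 point per gene; vertical position within a list carries no value. Filled, named points passed an adjusted p of 0.05 in edgeR. PER1, TSC22D3 and FKBP5 lie farthest right among the named genes on the left panel, at 1.89, 1.72 and 1.23, and SLC9A3R1 is the one named gene below 0 in both panels.

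The channel and pump genes that passed with Dex were the members SCNN1A and ATP1B1, both beside MS023. Of the further genes reported here, none of 2 tested ENaC subunits and none of 7 sodium pump genes passed beside either inhibitor. Of these channel subunits, SCNN1D was at a mean of 22.0 ± 2.41 CPM in untreated cells (SD, n = 2) and SCNN1B at 0.706 ± 0.0856 CPM, and SCNN1G did not pass the filter on low counts. Of the receptors, NR3C1, which encodes the glucocorticoid receptor, was at a mean of 69.6 CPM in untreated cells, and NR3C2, the mineralocorticoid receptor gene, at 1.42 CPM.

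At 3 h, 7 of the 62 pathway genes rose and 2 fell with GSK591 (14.5%, median 0.10), and 5 rose and 2 fell with MS023 (11.3%, median 0.05). Over all tested genes 11% and 7.63% were called, with a median of -0.01 in both, so the pathway shares lay near the background. At 15 min none of the 62 passed with either inhibitor. SIRT1 and SLC12A2 rose most among those called. SIRT1 went from 28.8 ± 2.17 CPM in untreated cells to 71.2 ± 1.37 with GSK591 and 68.1 ± 2.59 with MS023 (SD, n = 2), log2 fold changes of 1.31 and 1.24. SLC12A2 went from 18.9 to 42.7 and 38.0 CPM, log2 fold changes of 1.18 and 1.02. WNK1, the kinase upstream of SPAK, rose by 0.37 and 0.35. SLC9A3, which encodes NHE3, rose by 0.63 and 0.48, although its exons overlap EXOC3 and an antisense transcript.

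Each inhibitor also had calls of its own at 3 h. SLC9A3R1, SERPINE2 and UBP1 passed with GSK591, at 0.36, 0.38 and 0.33, and SGK3 passed with MS023, at 0.61. None of these was called in the direct comparison of the inhibitors at 3 h, so they are not shown to differ. PER1 and TSC22D3, which had risen with Dex, fell at 3 h without Dex. PER1 fell by 0.93 on the log2 scale with GSK591, to 14.7 ± 0.145 CPM, and by 0.73 with MS023, to 17.0 ± 2.00 CPM, from 27.9 ± 1.50 CPM in untreated cells (SD, n = 2). TSC22D3 fell by 0.71 and 0.53. FKBP5 differed by -0.00 ± 0.24 and -0.12 ± 0.25 and did not pass, as SGK1 did not. Since the untreated cells are labelled 15 min, a change with time in culture cannot be told apart from a change with the inhibitors.

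**Figure D5:**
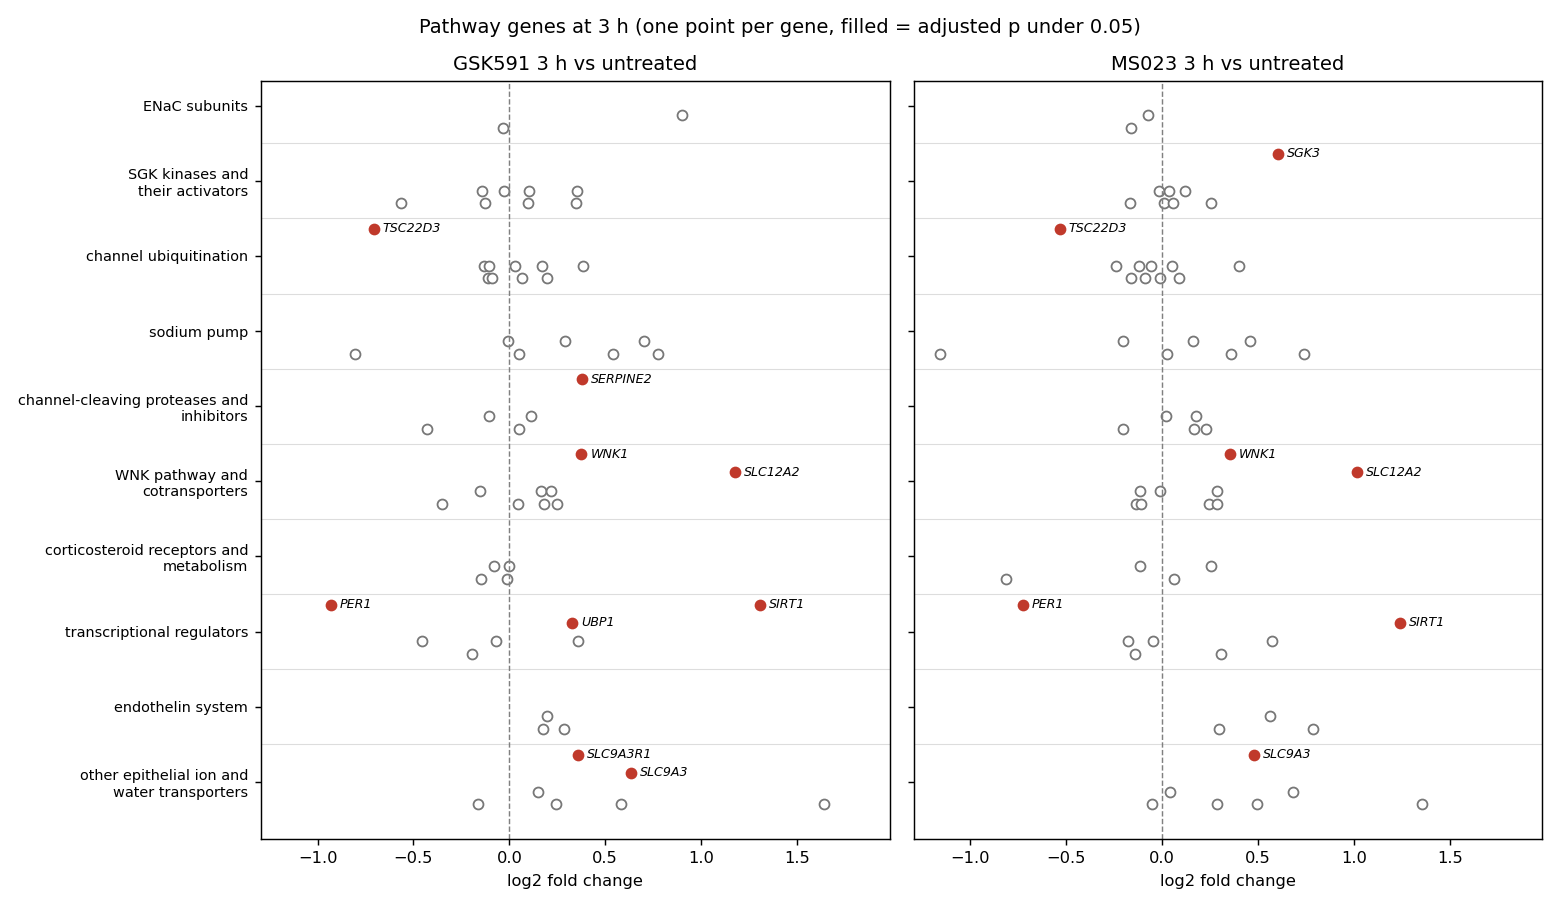
Log2 fold change against untreated cells of the 62 tested pathway genes after 3 h of GSK591 (left) or MS023 (right), grouped by list, 1 point per gene; vertical position within a list carries no value. Filled, named points passed an adjusted p of 0.05 in edgeR. SIRT1 and SLC12A2 are the highest named points in both panels, and PER1 and TSC22D3 the named points below 0.

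Patterns over the 14 libraries were compared by Pearson correlation of log2 CPM, as a description of libraries that share groups and scaling. Among the members, NEDD4L and ATP1B1 were most alike (r = 0.828), followed by SGK1 and SCNN1A (0.802), SGK1 and TFCP2L1 (0.778) and TFCP2L1 and EDN1 (0.715). SGK1 and ATP1B1 had r = 0.187. EDN1 had r = 0.559 with SGK1, 0.301 with SCNN1A and -0.016 with ATP1B1. No grouping of the members was tested.

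Over 17477 genes whose mean reached 2 CPM, those most like SGK1 were CD99 (r = 0.955), RFESD (0.947), ZC3H12C (0.943), TBX3 (0.938) and the long noncoding RNA AL161431.1 (0.934). TBX3, a T-box transcription factor, had log2 fold changes with Dex of 0.89 and 0.90 beside GSK591 and MS023, and AL161431.1 of 1.19 and 1.09. CD99, a surface glycoprotein, had 0.52 and 0.46. RFESD had 0.54 and 0.67 and was called only beside MS023 (edgeR). ZC3H12C had 0.51 and 0.42 and was called beside neither. The genes most like ATP1B1 were WRNIP1 (0.983), DONSON (0.982) and CEBPA (0.977). CEBPA, a transcription factor of the C/EBP family, had 0.08 with Dex beside GSK591, 1.26 beside MS023, and 1.20 and 1.18 at 3 h of GSK591 and MS023. DONSON, a replication factor gene, had 0.20, 1.38, 1.49 and 1.60 in the same order, and its exons overlap SON.

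For SCNN1A the most alike were CPEB4 (0.924), LURAP1L (0.915) and MMD (0.909), for NEDD4L CRK (0.925), BEND3 (0.921) and EBF4 (0.913), and for TFCP2L1 SPRY2 (0.895), IL6ST (0.894) and THBS1 (0.891). EDN1 had the weakest likenesses: ANAPC15 (0.865), MTATP6P1 (0.854) and ATP8 (0.849). MTATP6P1 is a nuclear copy of mitochondrial sequence and ATP8 is a mitochondrial gene, so their reads cannot be assigned between near-identical copies.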

How the data were processed

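The authors deposited whole-number read counts per gene for 14 PRO-seq libraries, made with featureCounts 2.0.1 of Subread on hg38 per the submitters' processing notes. The aligner, the feature counted, duplicate handling and the use of strand are not given in the sources used here. The authors also deposited 6 DESeq2 tables of each treatment against the control which, per the file headers, hold log2 fold changes with standard errors, p-values and adjusted p-values, a test score and a mean signal (baseMean).

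Counts were tested as deposited with edgeR 4.0.16 (R 4.3.3), using its quasi-likelihood test, TMM scaling and its filter on low counts (21910 genes kept). A single fit held all 14 libraries, with a coefficient per group (7 residual degrees of freedom, biological coefficient of variation 0.0728). In each of 13 contrasts, p-values were adjusted over all tested genes by the Benjamini-Hochberg method and genes under 0.05 were called. CPM is counts over TMM-scaled library sizes, and without a spike-in changes are relative to the bulk of genes. Identifiers matched GENCODE release 29 for all 58780 genes, which gave 22731 missing symbols.

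The members and the pathway lists were chosen with earlier results of these data known. Some genes of the lists are not reported here and enter no list count or figure. Pathway genes were named where called in either contrast that adds Dex or either 3 h contrast against untreated cells, with PER1, TSC22D3 and FKBP5 always given. For likeness the top 5 genes for SGK1 and the top 3 for each other member were named. Alternatives were DESeq2 1.42.0, RLE factors, library size alone, no expression filter, no mitochondrial genes, a replicate block, only the compared groups, and leaving out each library. The functions were tested on simulated data.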

Additional observations from a re-analysis of the deposited data

Results flagged for a closer look

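The Dex effect on SLC12A2, the gene of the cotransporter NKCC1, differed between the inhibitors: the effect beside GSK591 minus that beside MS023 was -0.87 ± 0.21 on the log2 scale (adjusted p 0.0278, edgeR's quasi-likelihood test). The same gene was higher with GSK591 than with MS023 at 15 min without Dex, by 0.66 ± 0.16 (adjusted p 0.0219, edgeR), as was ATP1B1, by 0.68 ± 0.13 (adjusted p 0.0038, edgeR). Both genes were picked because this 15 min comparison called them. That their GSK591 and MS023 libraries without Dex did not overlap therefore adds nothing to the calls. The libraries with Dex overlapped. MS023 for 15 min replicate 2 had the lowest total of the 14 libraries, 5768312 counts, and the lowest mitochondrial share, 39.8%. Without that library the 15 min differences were 1.02 for ATP1B1 (adjusted p 6.56e-05, edgeR) and 0.86 for SLC12A2 (adjusted p 0.0106, edgeR). Without MS023 15 min replicate 1 they were 0.38 (adjusted p 0.633, edgeR) and 0.45 (adjusted p 0.708, edgeR). Without GSK591 15 min replicate 1 they were 0.52 (adjusted p 0.262, edgeR) and 0.47 (adjusted p 0.537, edgeR). DESeq2 called neither gene, with adjusted p of 0.156 and 0.12. The SLC12A2 difference in Dex effects ranged from -1.09 to -0.61 when single libraries were left out, with adjusted p from 0.00609 to 0.439 (edgeR), and DESeq2 gave an adjusted p of 0.126. The alternatives for SLC12A2 were added after seeing the data. The groups had 2 libraries each, too few to look for a single library far from the others within a group.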

How the results depend on the processing

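Calls over all tested genes moved with the setting as well, also when single libraries were left out. At 3 h of GSK591 and MS023 the main fit called 2419 and 1672 of 21910 genes. DESeq2 called 1251 of 15525 and 917 of 16364, and library size alone 2157 and 1001 of 21910. With Dex beside GSK591 and MS023, DESeq2 called 401 of 13847 and 1020 of 16364 genes. For the inhibitors against each other at 15 min the main fit called 239 genes, DESeq2 76 of 12169 and library size alone 29. The number of called members moved by over 1.5 times in 11 of the 13 comparisons. With DESeq2 it was 1 for GSK591 at 3 h, 1 for MS023 at 3 h, 1 for MS023 at 3 h against 15 min, 2 for Dex beside MS023, 1 for each combination with Dex against untreated cells and 0 for the inhibitors against each other at 15 min. With library size alone it was 1 for MS023 at 3 h and for MS023 at 3 h against 15 min, 0 for Dex beside GSK591, 1 for Dex beside MS023, 0 and 1 for GSK591 and MS023 with Dex against untreated cells, and 0 for the inhibitors at 15 min. Without the expression filter it was 1 for GSK591 at 15 min, 2 for Dex beside MS023, 1 for the difference of the Dex effects and, within 1.5 times, 3 in place of 4 for MS023 with Dex against untreated cells. In the fit of the compared groups alone it was 1 for GSK591 at 15 min. When each library was left out in turn, the number ranged from 0 to 1 for GSK591 at 15 min, 1 to 1 for either inhibitor at 3 h, for Dex beside GSK591 and for MS023 at 3 h against 15 min, 1 to 3 for Dex beside MS023, 0 to 1 for the difference of the Dex effects, for GSK591 at 3 h against 15 min and for the inhibitors at 15 min, 0 to 2 for GSK591 with Dex and 0 to 3 for MS023 with Dex against untreated cells.

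Scaling by library size alone shifted the median over all genes to a log2 fold change of -0.21 for Dex beside GSK591 and -0.19 for Dex beside MS023. Under it the log2 fold changes of SGK1 were 0.46 (adjusted p 0.0527, edgeR) and 0.33 (adjusted p 0.168, edgeR), and the higher and lower calls over all genes were 98 and 1374, and 533 and 1317, in place of 313 and 498, and 1293 and 673. DESeq2 called 401 and 1020 genes with Dex and 1251 and 917 at 3 h of GSK591 and MS023, where edgeR called 811, 1966, 2419 and 1672. The cause of these differences was not tested. Over single members and contrasts the main fit called 18 of 78 values. In the alternatives 58 values lost a call, 8 gained one, and no called value changed sign. The other 816 kept their side of the threshold, and most of these were uncalled in the main fit. Of the 684 that were uncalled to begin with, 56 changed sign.

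Same-numbered replicates of the groups had correlated deviations of -0.08 to 0.16 over 21 pairs of groups, so the numbers were not taken to pair samples. The fit with the replicate number as a block gave SGK1 0.67 (adjusted p 0.00022, edgeR) and 0.50 (adjusted p 0.00215, edgeR) with Dex beside GSK591 and MS023, and it changed no number of called members. When a group is left with 1 library, that library is assumed to vary like the other groups. Depth limits TFCP2L1 in particular, with 19 to 43 counts per library.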
